A study of Homo sapiens with 12 samples.

Results

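B2M, CD74, CIITA, ERAP1, ERAP2, CALR and CANX are 7 genes of antigen presentation, chosen by symbol from the 4918 genes with measured values. B2M encodes the light chain of MHC class I molecules. ERAP1 and ERAP2 encode aminopeptidases that trim peptides in the endoplasmic reticulum (ER), and CALR (calreticulin) and CANX (calnexin) are the ER lectin chaperones that help class I heavy chains to fold and load. CD74, the invariant chain, guides MHC class II molecules to endosomes, and CIITA, the class II transactivator, switches class II genes on. Interferon gamma (IFNγ), a cytokine released by T cells and natural killer cells, is known to induce both presentation pathways in tumor cells, which makes peptides visible to CD8+ and CD4+ T cells.

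RNA was sequenced from A375, an established human melanoma cell line, in 4 groups of 3 samples. The groups were control cells, cells given SB-3CT, cells given IFNγ, and cells given SB-3CT and IFNγ together, all for 24 h. SB-3CT is a small-molecule inhibitor of the gelatinases MMP2 and MMP9. The labels give no dose, and nothing in them says that the 3 samples of a group came from separate cultures, so p-values measure only the spread between these samples, which may be technical. The legend of the paper's figure that includes RNA-seq of A375 cells says that all its experiments were independently done 3 times. It does not say whether the 3 samples of a group are those repeats. Levels are FPKM (fragments per kilobase, scaled to the depth of a sample), a unit per length, so that genes can be compared. Changes and their standard errors (SE) are differences on the log2(FPKM + 1) scale from limma. A gene was called where its p-value, adjusted over all 4918 genes by Benjamini-Hochberg, was under 0.05. The table runs in alphabetical order from A1BG to FAM46B, so that the MHC genes themselves and the peptide transporter genes were not analysed here. Sample totals of reads were not given, and relative depth, as a percentage of the control mean, ranged from 87.1% to 150.1%. The A375 label was set beside marker genes. Of 10 melanoma and A375 markers, 3 were below 1 FPKM in every sample, namely DCT (highest 0.384 FPKM), BIRC7 (0.567 FPKM) and ABCB5 (0.0246 FPKM), and AXL, CAV1, CSPG4 and CD63 were expressed in every group. Of 16 measured blood cell markers 14 were below 1 FPKM in every sample. The summed level of the blood cell markers was 2.18 to 3.46 FPKM without IFNγ and 13.8 to 16.5 FPKM with it, most of it CD7, which had a mean of 11.4 FPKM with IFNγ. All 5 measured fibroblast and endothelial markers were below 1 FPKM in every sample.

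By the GENCODE annotation of hg19, B2M lies on the plus strand at chr15:45003556-45011049. CD74 (chr5:149781200-149792532, minus strand), ERAP1 (chr5:96096514-96143803, minus strand), ERAP2 (chr5:96211690-96255407, plus strand) and CANX (chr5:179105629-179158642, plus strand) share chromosome 5. CIITA is at chr16:10960079-11036878 and CALR at chr19:13049392-13055303, both on the plus strand. Exons of DEXI overlap 10.7% of the exon bases of CIITA on the opposite strand, exons of CAST overlap 3.76% of those of ERAP1, and exons of CBY3 overlap 4.64% of those of CANX. Strand-specific counting was not stated, so reads from these stretches cannot be told apart.

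Promoter sequences are shown for the motif matches that the search found in them, as descriptions set beside no test. RefSeq promoter windows (GRCh38.p14, 250 bases before to 50 after a listed start) were found for 6 of the 7 genes, all but CIITA. They were searched on both strands for the letters of the interferon response element (GAAANNGAAA, in 3.57% of all 35116 windows), the CCAAT box (CCAAT, 34.6%), the ER stress response element (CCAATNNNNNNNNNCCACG, which contains a CCAAT box, 0.0769%) and the E box (CACGTG, 7.26%). A match is a description of letters and not a bound site. B2M held a pair of overlapping interferon response element matches, from -144 to -135 and from -138 to -129 relative to the start. ERAP2 held 1 match from -30 to -21 at its second listed start, and ERAP1 held 1 on the minus strand of the gene from 3 to 12 at its first listed start. In these lines, capitals mark the matches, and the windows lie at chr15:44711267-44711516 on the plus strand (B2M), chr5:96876250-96876499 on the plus strand (ERAP2) and chr5:96807931-96807960 on the minus strand (ERAP1, bases -15 to 15).
B2M: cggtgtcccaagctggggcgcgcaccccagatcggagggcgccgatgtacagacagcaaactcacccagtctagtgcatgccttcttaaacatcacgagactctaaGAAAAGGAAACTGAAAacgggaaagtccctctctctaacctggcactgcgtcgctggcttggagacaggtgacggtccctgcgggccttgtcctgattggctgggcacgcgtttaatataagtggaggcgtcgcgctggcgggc
ERAP2: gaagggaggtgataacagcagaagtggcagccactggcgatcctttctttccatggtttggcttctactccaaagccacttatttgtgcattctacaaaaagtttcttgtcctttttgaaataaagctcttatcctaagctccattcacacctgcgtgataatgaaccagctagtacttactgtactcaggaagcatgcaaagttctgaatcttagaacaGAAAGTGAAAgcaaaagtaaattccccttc
ERAP1: cgctccccgggctccacTTTCACTTTCggt

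The ER stress response element was matched in the lectin chaperone genes CALR, on the minus strand of the gene from -225 to -207, and CANX, from -151 to -133 at its first listed start. Of the 35116 windows 27 held it. CD74 held a CCAAT box from -53 to -49. CCAAT boxes were also matched in B2M, ERAP1, CALR and CANX, and an E box at the fourth listed start of CANX, from 31 to 36. The windows, with the ER stress response element of CALR and CANX and the CCAAT box of CD74 in capitals, lie at chr19:12938359-12938608 (CALR, plus strand), chr5:179698679-179698928 (CANX, plus strand) and chr5:150412911-150413160 (CD74, minus strand).
CALR: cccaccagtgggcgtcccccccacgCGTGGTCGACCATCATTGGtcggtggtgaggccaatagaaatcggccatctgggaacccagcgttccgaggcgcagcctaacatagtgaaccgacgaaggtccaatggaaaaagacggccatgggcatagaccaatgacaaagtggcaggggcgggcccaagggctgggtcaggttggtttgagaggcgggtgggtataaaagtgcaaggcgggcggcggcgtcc
CANX: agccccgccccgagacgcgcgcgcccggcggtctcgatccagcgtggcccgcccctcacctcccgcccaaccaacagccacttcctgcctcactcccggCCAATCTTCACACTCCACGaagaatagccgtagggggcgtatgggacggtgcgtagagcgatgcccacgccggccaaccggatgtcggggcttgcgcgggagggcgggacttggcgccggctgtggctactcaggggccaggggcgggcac
CD74: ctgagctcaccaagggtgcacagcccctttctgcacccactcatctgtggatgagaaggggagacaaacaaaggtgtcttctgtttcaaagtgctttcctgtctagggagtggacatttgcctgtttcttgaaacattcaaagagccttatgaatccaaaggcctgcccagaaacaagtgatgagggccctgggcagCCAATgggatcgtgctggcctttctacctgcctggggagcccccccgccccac

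In control cells the 7 genes spanned more than 3 orders of magnitude of FPKM, in the order B2M, CD74, CALR, CANX, CIITA, ERAP1 and ERAP2. The same order held in each of the other 3 groups, and the samples of neighbours in it did not overlap in any group. The gaps were unequal. B2M was 1.24 times the level of CD74 in control cells and 1.86 times with IFNγ, whereas CANX was 9.56 times the level of CIITA in control cells and 1.50 times with IFNγ.

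**Figure D1:**
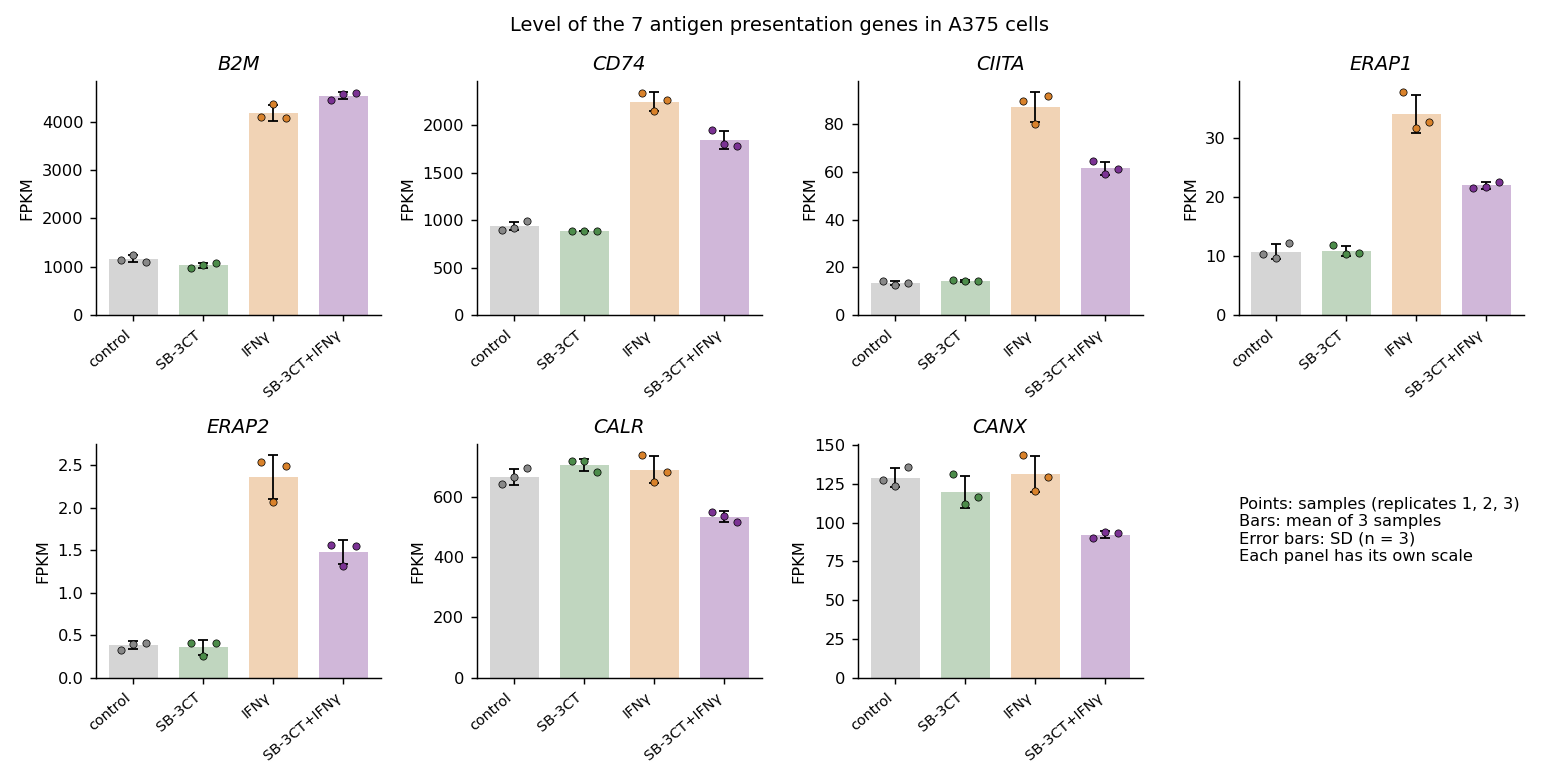
FPKM of the 7 genes in the 4 groups, each panel with its own linear scale from 0; points are samples, bars the mean and error bars the SD (n = 3). B2M, CD74, CIITA, ERAP1 and ERAP2 stand higher in both IFNγ groups, and 6 of the 7 genes, all but B2M, stand lower with both agents than with IFNγ.

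The first question was which of these genes IFNγ raised in A375 cells. IFNγ raised 5 of the 7 genes, B2M, CD74, CIITA, ERAP1 and ERAP2, and lowered 0 of 7, where 8.46% of all genes were called higher and 11.0% lower. When the 3177 genes with mean FPKM at or above 1 were tested alone, 432 were called higher and 613 lower. The chaperone genes CALR and CANX did not pass the test.

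Among the class I genes, B2M was at 1139, 1242 and 1104 FPKM in the 3 controls and at 4104, 4377 and 4086 FPKM with IFNγ. It was the most abundant of the 4918 transcripts in every IFNγ-treated sample, and its mean rose 3.61-fold (log2 change 1.85, SE 0.08, adjusted p = 2.34e-05 from limma). ERAP1 was at 10.4, 9.68 and 12.1 FPKM in the controls and at 37.8, 31.8 and 32.7 FPKM with IFNγ, a 3.18-fold rise (log2 change 1.58, SE 0.10, adjusted p = 0.000204 from limma). CAST, which overlaps it, rose from 20.0 ± 1.35 to 25.5 ± 1.39 FPKM (SD, n = 3; log2 change 0.33, limma adjusted p = 0.0166). ERAP2, the second trimming enzyme, was near the floor in the controls at 0.329, 0.403 and 0.414 FPKM and reached 2.54, 2.07 and 2.49 FPKM with IFNγ. Its mean rose 6.20-fold, while its log2 change, which the added 1 makes too small for such low levels, was 1.28 (SE 0.07, adjusted p = 0.000134 from limma). Every IFNγ sample of these 3 genes lay above every control. Such a separation of 3 against 3 samples, here and below, has a p-value of 0.1 in an exact permutation test. The share of all genes that show it was not counted.

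Of the class II genes, CIITA had the largest log2 change of the 7. It was at 14.3, 12.7 and 13.5 FPKM in the controls and at 89.6, 80.2 and 92.0 FPKM with IFNγ, a 6.46-fold rise (log2 change 2.60, SE 0.07, adjusted p = 3.87e-06 from limma). DEXI, whose exons overlap those of CIITA, also rose, from 10.5 ± 0.86 to 20.7 ± 2.98 FPKM (SD, n = 3; log2 change 0.90, limma adjusted p = 0.00315). CD74 was already abundant in control cells, at 899, 921 and 986 FPKM, and was at 2338, 2143 and 2261 FPKM with IFNγ, a 2.40-fold rise (log2 change 1.26, SE 0.07, adjusted p = 0.000102 from limma). The groups of both genes were apart. CD274, which encodes PD-L1 and was the readout gene of the study, had a log2 change of 3.88 in the same comparison.

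CALR and CANX gave overlapping groups. CALR was at 642, 665 and 695 FPKM in the controls and 740, 651 and 683 FPKM with IFNγ (log2 change 0.05, 95% confidence interval -0.11 to 0.21, adjusted p = 0.669 from limma). CANX was at 128, 124 and 136 FPKM in the controls and 144, 121 and 129 FPKM with IFNγ (log2 change 0.02, 95% confidence interval -0.16 to 0.20, adjusted p = 0.891 from limma).

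IFNγ was also compared in cells given SB-3CT. The same 5 genes rose there and CALR and CANX fell, that is 5 of 7 higher and 2 of 7 lower, where 7.85% of all genes were called higher and 32.7% lower. When the 3177 genes with mean FPKM at or above 1 were tested alone, 361 were called higher and 1609 lower. B2M went from 972, 1039 and 1067 FPKM with SB-3CT to 4452, 4577 and 4588 FPKM with SB-3CT and IFNγ, a 4.42-fold rise (log2 change 2.15, SE 0.06). CIITA rose 4.29-fold, from 14.8, 14.1 and 14.3 FPKM to 64.6, 59.2 and 61.2 FPKM. The rises were 2.08-fold for CD74 (log2 change 1.06, SE 0.05), 2.02-fold for ERAP1 (0.96, SE 0.06) and 4.15-fold for ERAP2 (0.87, SE 0.07), and limma's adjusted p-values of the 5 rises lay between 2.16e-06 and 0.000591. No sample of the 5 genes overlapped between these groups, and the share of all genes without overlap was not counted.

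CALR went from 718, 718 and 685 FPKM with SB-3CT to 552, 538 and 516 FPKM with both agents (log2 change -0.40, SE 0.05, adjusted p = 0.00158 from limma). CANX went from 131, 112 and 116 FPKM to 89.9, 93.9 and 93.2 FPKM (log2 change -0.37, SE 0.06, adjusted p = 0.00599 from limma). Both chaperones were below every SB-3CT sample. The median log2 change of expressed genes (3177 genes with mean FPKM at or above 1) was -0.21 here. Median ratio scaling, in which a sample is divided by the median of its ratios to the genes' geometric means, brought that median to 0.01. On that scale CALR was at -0.14 (adjusted p = 0.139) and CANX at -0.11 (adjusted p = 0.160), and neither was called, whereas all 5 rises were.

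**Figure D2:**
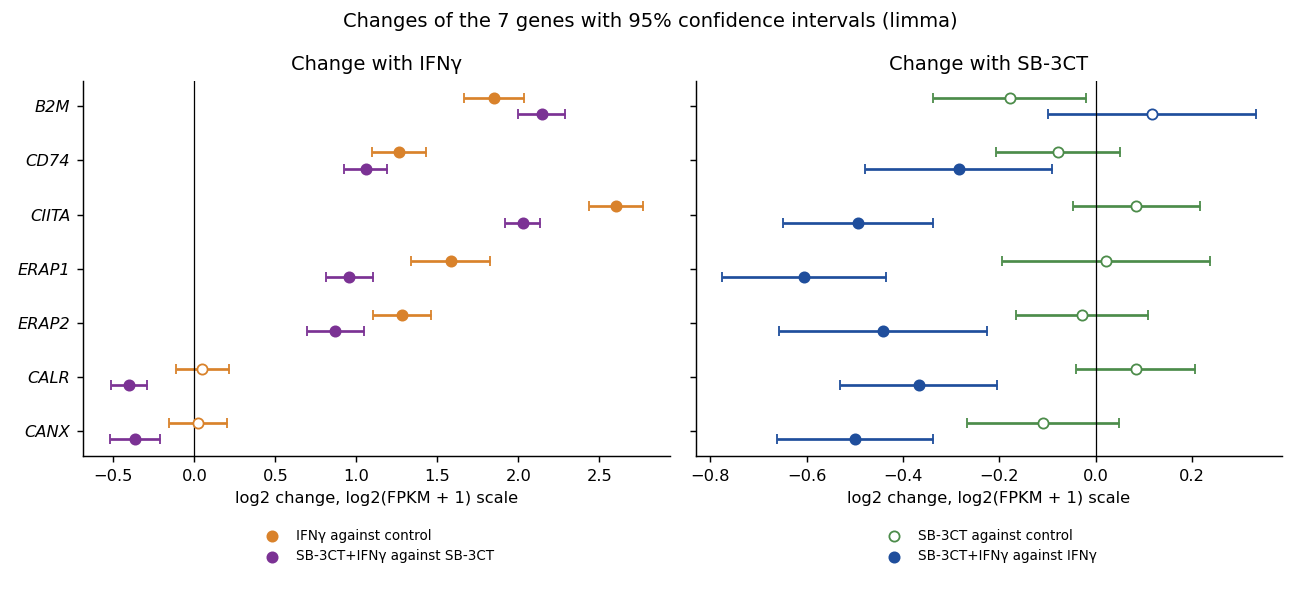
Log2 changes of the 7 genes on the log2(FPKM + 1) scale with 95% confidence intervals from limma (n = 3 samples per group), for IFNγ on the left and SB-3CT on the right; filled points have an adjusted p-value under 0.05. B2M has the larger IFNγ change with SB-3CT (2.15 against 1.85) and CIITA, ERAP1 and ERAP2 the larger one without it (CIITA 2.60 against 2.03).

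SB-3CT alone was then compared with the same control samples that served for IFNγ. None of the 7 genes passed the test in limma in either direction, where 5.37% of all genes were called higher and 6.87% lower, and at an unadjusted p-value under 0.05 there was 1, B2M. B2M was lower in all 3 SB-3CT samples than in any control, with a log2 change of -0.18 (SE 0.07, unadjusted p = 0.0329 and adjusted p = 0.127 from limma). After quantile normalization its log2 change was -0.26 with an adjusted p-value of 0.0404. CD74 was at 887, 881 and 888 FPKM with SB-3CT, also below every control, with a log2 change of -0.08 (95% confidence interval -0.21 to 0.05, limma adjusted p = 0.393). The other 5 genes overlapped between the groups, and the share of all genes without overlap was not counted. Their log2 changes were 0.08 for CIITA, 0.02 for ERAP1, -0.03 for ERAP2, 0.08 for CALR and -0.11 for CANX, and their intervals together ran from -0.27 for CANX to 0.24 for ERAP1.

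The study sequenced these cells to find which pathways SB-3CT alters, and the next comparison was made in cells stimulated with IFNγ. With both agents 6 of the 7 genes, all but B2M, were called lower than with IFNγ alone and 0 of 7 higher, where 31.5% of all genes were called lower and 6.41% higher. The share was larger among expressed genes. When the 3177 expressed genes were tested alone, 1510 of them were called lower and 348 higher. The median log2 change of the 3177 expressed genes was -0.20, and 0.02 after median ratio scaling. On that scale 4 of the 7 were lower (CIITA, ERAP1, ERAP2 and CANX) and 0 higher, where 15.5% of all genes were lower and 16.5% higher. In these bulk samples, fewer cells expressing a gene and less of its RNA per cell cannot be told apart.

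ERAP1 had the largest fall on the log2(FPKM + 1) scale, and ERAP2 the largest in percent of mean FPKM. ERAP1 samples were at 37.8, 31.8 and 32.7 FPKM with IFNγ and at 21.6, 21.8 and 22.6 FPKM with both agents, so that the mean fell by 35.4% (log2 change -0.61, SE 0.07, adjusted p = 0.00212 from limma) while staying above every control. After median ratio scaling the log2 change was -0.36 (adjusted p = 0.0044). CAST, its overlapping neighbor, fell as well, with a log2 change of -0.65 (limma adjusted p = 0.00299). ERAP2 was at 1.57, 1.31 and 1.55 FPKM with both agents, none of them within the range of IFNγ alone, and its mean fell by 37.6% (log2 change -0.44, SE 0.09, adjusted p = 0.00885 from limma). It stayed called after median ratio scaling (-0.28, adjusted p = 0.0337) and was not called after quantile normalization (-0.18, adjusted p = 0.129) or without the length trend and with summed FPKM kept (-0.19, adjusted p = 0.129).

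B2M, the class I light chain, did not follow the trimming enzymes. It was at 4452, 4577 and 4588 FPKM with both agents, above the 4104, 4377 and 4086 FPKM of IFNγ alone in all 3 samples. The log2 change was 0.12 (SE 0.09, 95% confidence interval -0.10 to 0.33, adjusted p = 0.377 from limma), and 0.37 after median ratio scaling (adjusted p = 0.138). The sign turned when the dependence of values on transcript length was removed from every sample, which was tried after seeing the data. B2M, with a transcript of 943 bases, then had -0.32 (adjusted p = 0.0146) where the sample median was kept and -0.06 (adjusted p = 0.588) where the summed FPKM was kept.

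CIITA went from 89.6, 80.2 and 92.0 FPKM with IFNγ to 64.6, 59.2 and 61.2 FPKM with both agents, and its mean fell by 29.4% (log2 change -0.49, SE 0.07, adjusted p = 0.00254 from limma). After median ratio scaling the log2 change was -0.24 (adjusted p = 0.0151). Without the length trend, and with summed FPKM kept, it was -0.04 (adjusted p = 0.638). That value rests on a canonical transcript of 16061 bases for CIITA, and the transcript length behind the FPKM values is not given in the sources used here. DEXI fell beside it, to 13.3 ± 0.65 FPKM (SD, n = 3; log2 change -0.59, limma adjusted p = 0.00437). CD74 was at 1952, 1802 and 1781 FPKM with both agents, below every IFNγ sample, and its mean fell by 17.9% (log2 change -0.28, SE 0.08, adjusted p = 0.0306 from limma). This was the weakest of the 6 calls. After median ratio scaling the log2 change was -0.03 (adjusted p = 0.875). The call was also lost without IFNγ replicate 1 (limma adjusted p = 0.0733), IFNγ replicate 3 (0.106), and replicate 2 (0.113) or 3 (0.122) of both agents, and with the replicate number as a block (limma adjusted p = 0.0583).

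On the deposited scale both chaperones had their lowest mean with both agents. Both agents together were not tested against the control. CALR was at 552, 538 and 516 FPKM with both agents, and its mean fell by 22.6% against IFNγ alone (log2 change -0.37, SE 0.07, adjusted p = 0.00624 from limma). After median ratio scaling it was at -0.11 (adjusted p = 0.265) and not called, the only alternative of 17 that lost the call. Quantile normalization gave -0.58 (adjusted p = 0.00492). CANX was at 89.9, 93.9 and 93.2 FPKM, and its mean fell by 29.7% (log2 change -0.50, SE 0.07, adjusted p = 0.00268 from limma), with -0.25 (adjusted p = 0.0107) after median ratio scaling. Without the length trend, and with summed FPKM kept, CANX was at -0.13 (adjusted p = 0.0666) and not called. For comparison, CD274 had a log2 change of -0.53 on the deposited scale.

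**Figure D3:**
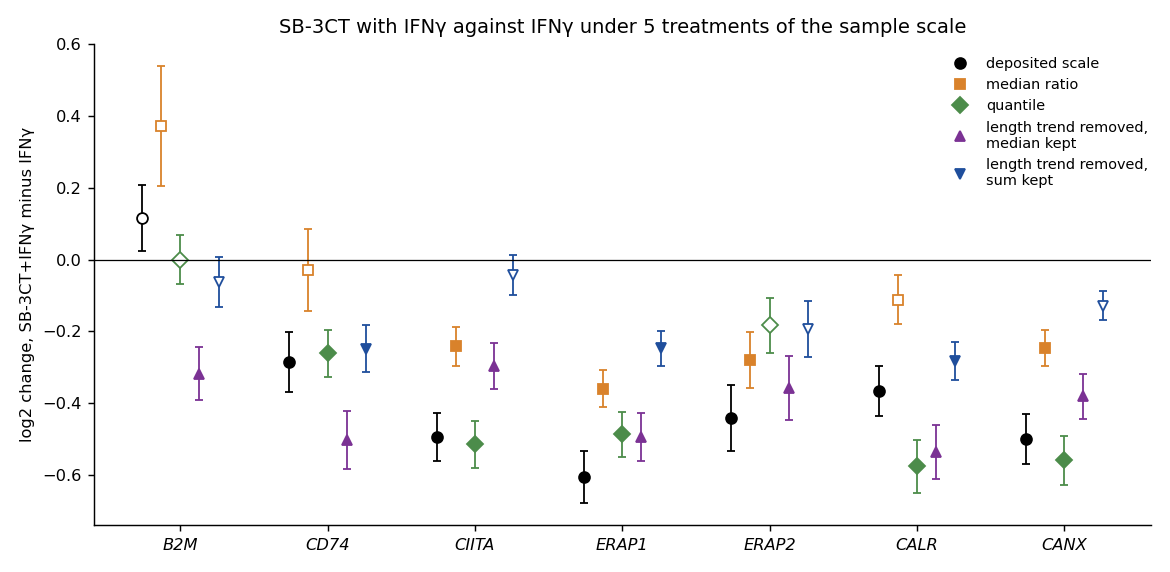
Log2 change of each gene between SB-3CT with IFNγ and IFNγ alone (vertical axis, error bars are standard errors from limma, n = 3 samples per group) on the deposited scale and under 4 other treatments of the sample scale; filled points have an adjusted p-value under 0.05. ERAP1 is below 0 and called under all 5, whereas B2M lies between 0.37 and -0.32.

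Whether the SB-3CT change differed between IFNγ-stimulated and unstimulated cells was tested as an interaction over all 12 samples. It was called in 6 of the 7 genes, 1 higher and 5 lower, where 4.74% of all genes were called higher and 17.6% lower. The difference was 0.29 for B2M (SE 0.09, adjusted p = 0.0435 from limma), the only gene of the 7 with a positive one on the deposited scale; it was -0.07 without the length trend and with the sample median kept. It was -0.63 for ERAP1 (SE 0.12, adjusted p = 0.00738), -0.58 for CIITA (SE 0.08, adjusted p = 0.00358), -0.45 for CALR (SE 0.08, adjusted p = 0.00588), -0.41 for ERAP2 (SE 0.11, adjusted p = 0.0197) and -0.39 for CANX (SE 0.10, adjusted p = 0.0199). CD74 had -0.21 (SE 0.09, limma adjusted p = 0.106). After median ratio scaling B2M, CIITA and ERAP1 were called, at 0.51, -0.36 and -0.42. When 1 sample at a time was left out, the call of B2M was lost in 10 of 12 fits, and its log2 difference ranged from 0.25 to 0.33.

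Other genes of the presentation pathways were counted in hand-written lists. The shares over all genes beside which each list stands were 8.46% higher and 11.0% lower with IFNγ, 31.5% lower and 6.41% higher with SB-3CT added to IFNγ, and 15.5% lower and 16.5% higher in the latter after median ratio scaling. Of the 3177 expressed genes tested alone, 432 were higher and 613 lower with IFNγ, and 1510 lower and 348 higher with SB-3CT added. Their median log2 changes were -0.04 and -0.20. In the class I list, 4 of 9 measured genes rose with IFNγ and 0 fell, with a median log2 change of 0.05 (all genes -0.02). Besides the members, 1 of 4 rose, ANPEP, a cell surface aminopeptidase, from 31.2 to 42.6 FPKM (log2 change 0.43). With SB-3CT added to IFNγ, 5 of 9 fell and 0 rose. The list median was -0.37, beside -0.09 for all genes and -0.20 for the expressed genes. After median ratio scaling 4 were lower and 1 higher (median -0.11). Besides the members 1 of 4 fell, BLMH, a cytosolic peptide-trimming protease, at -0.53. The median of these 4 on the deposited scale was -0.06, no lower than that of all genes or of the expressed genes.

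In the class II and endosomal list, 6 of 14 measured genes, CD74 and CIITA included, rose with IFNγ and 3 fell (median 0.13). Without CD74 and CIITA, 4 of 12 rose and 3 fell (median 0.00). CTSS encodes cathepsin S, the protease that removes the last part of the invariant chain, and rose from 0.871 to 42.6 FPKM, a log2 change of 4.55 (SE 0.08, adjusted p = 1.57e-06 from limma). CTSO rose from 0.494 to 3.35 FPKM, whereas the cathepsin genes CTSH (log2 change -0.44) and CTSK (-0.37) fell. CTSH was not called after median ratio scaling. With SB-3CT added to IFNγ, 7 of 14 fell and 1 rose (median -0.22, near the -0.20 of the expressed genes). Without CD74 and CIITA, 5 of 12 fell and 1 rose (median -0.15). After median ratio scaling 2 of the 14 were lower and 3 higher. CTSO (-0.62) and CTSZ (-0.32) fell and CTSL (cathepsin L) rose (0.39), and the fall of CTSZ was not called after median ratio scaling, nor that of CTSO after quantile normalization.

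Among genes of the lectin chaperone cycle and ER folding, CALR and CANX included, with IFNγ alone 3 of 18 measured genes rose and 2 fell (median -0.06), among them ERP44, which retains client proteins in the ER (0.53), and ERO1B, an ER oxidase (0.50), while CRELD2 fell (-0.18). CRELD2 was not called after median ratio scaling. With SB-3CT added to IFNγ, 12 of 18 fell and 2 rose (median -0.36), against 6 lower and 3 higher after median ratio scaling. Without CALR and CANX, 10 of 16 fell and 2 rose (median -0.30, expressed genes -0.20). EDEM3, a mannosidase-like protein of ER-associated degradation, had a log2 change of -0.67, and DNAJC3, an ER co-chaperone, of -0.62. DAD1, a subunit of the oligosaccharyltransferase, rose from 350 to 554 FPKM (0.67) and CRELD2 rose as well (0.21). Neither rise was called without the length trend and with the sample median kept, where 0 of 18 were higher and 13 lower. With summed FPKM kept instead, 2 were higher and 5 lower.

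Among 22 clathrin and adaptor genes, listed for endosomal sorting of class II but not specific to it, 1 rose and 1 fell with IFNγ (median -0.01). These were AP2A1 (0.22) and AP1M2 (-1.11). With SB-3CT added to IFNγ, 11 fell and 4 rose (median -0.24, near the -0.20 of the expressed genes), and 4 and 4 did so after median ratio scaling. AP3B1 (-0.76) and CLTC (-0.73), the clathrin heavy chain, fell, while CLTB (0.49), a clathrin light chain, and AP2S1 (0.33) rose. After quantile normalization the last pair was not called, with AP2S1 at -0.04. Without the length trend and with the sample median kept, 0 of 22 were called higher and 10 lower. With summed FPKM kept instead, 2 were higher and 4 lower. Of 13 partners and modifiers of class II transcription, 1 fell with IFNγ, CDK7 (-0.38), and none rose (median 0.01). With SB-3CT added, 10 fell and 0 rose (median -0.41), with the histone methyltransferase gene EZH2 at -0.61 and the coactivator gene EP300 at -0.55. After median ratio scaling 3 fell and 2 rose. Of the MHC-like molecules 2 of 6 were measured and both fell with IFNγ, AZGP1 from 8.36 to 3.69 FPKM, with neither called in the combination. CD40, a costimulatory receptor, rose from 2.30 to 12.7 FPKM with IFNγ (2.05), as the only 1 of 6 measured costimulatory genes, and 0 of 6 were called in the combination.

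**Figure D4:**
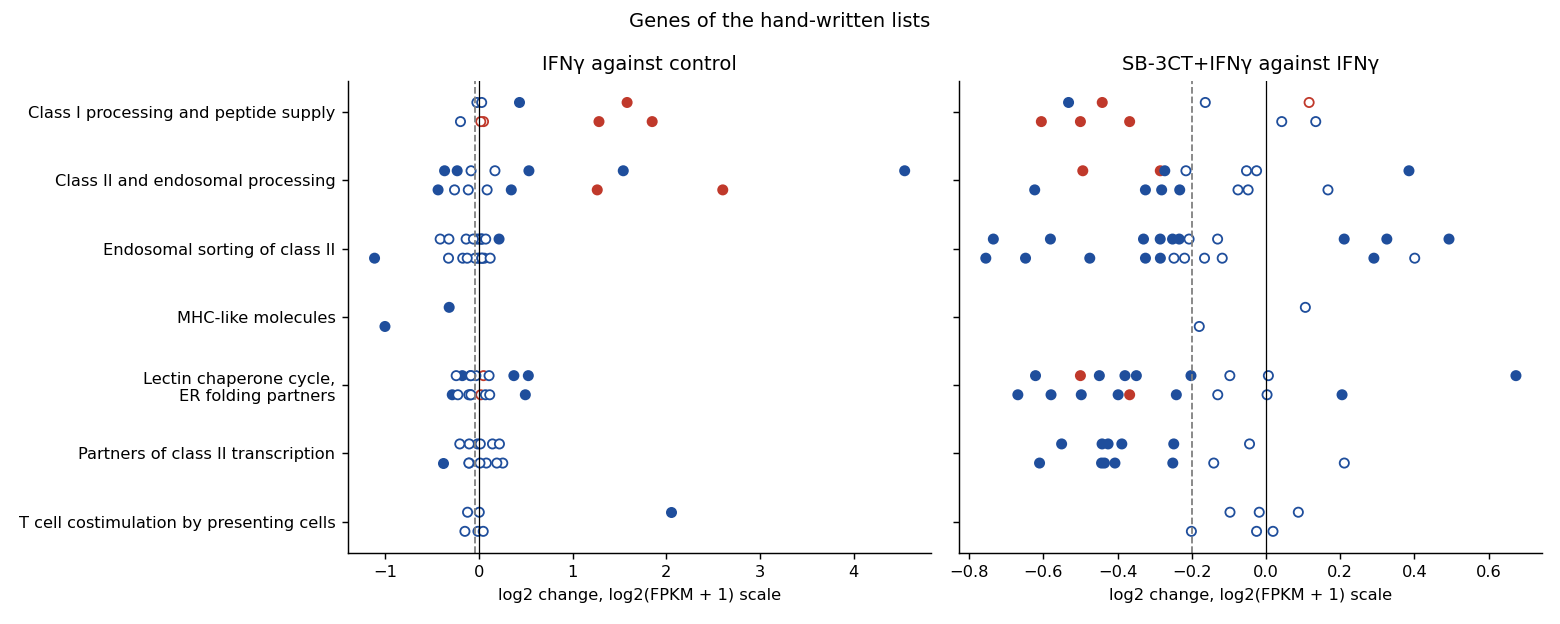
Log2 change on the log2(FPKM + 1) scale of each measured gene of the 7 lists with IFNγ against control (left) and SB-3CT with IFNγ against IFNγ (right); filled points have an adjusted p-value under 0.05 in limma, red points are the 7 genes, and the dashed line is the median of the 3177 expressed genes. In the right panel the dashed line stands at -0.20, and points of most lists lie on both sides of it.

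For each gene, the most similar genes over the 12 samples were taken by Pearson's r of the log2 values among the 3177 expressed genes. The 12 samples share 4 treatments, so r mainly describes the group means. Genes picked in this way share the group pattern through the selection itself. B2M was most like CXCL10, a chemokine gene (r = 0.997), CTSS (0.996) and BANCR (0.994). All 3 had a higher mean with both agents than with IFNγ alone, for CTSS 48.0 against 42.6 FPKM. This difference was not called for CTSS (limma adjusted p = 0.0678), nor for B2M itself. CIITA was most like APOL6 (0.998), APOL3 (0.998) and APOL1 (0.997), and CD74 most like EPHB2 (0.997), DHX58 (0.996) and CAND2 (0.995). ERAP1 was closest to DDX60 (0.993), ACSL1 (0.993) and BTN3A3 (0.992), and ERAP2 to BTN3A2 (0.996), DDX58 (0.995) and ATP10A (0.995). CALR was closest to C2CD3 (0.973), CBX2 (0.965) and CNN2 (0.963), and CANX to AZIN1 (0.991), BBS2 (0.988) and ARFGEF2 (0.988). The 3 genes closest to CANX, like CANX, had their lowest mean with both agents, which follows from how they were picked.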

How the data were processed

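RNA from A375 cells was sequenced as 150-base paired-end reads. The authors aligned them to hg19 with HISAT2 (2.0.5) and calculated FPKM with StringTie (1.3.3), per the submitters' processing notes. The deposited values, up to 12.16, follow log2(FPKM + 1), and FPKM was recovered from them. Logarithms, which the planned test would have taken, were therefore not taken again. Every column was assigned by its name, with 0 sample columns unused. Since absolute depth is unknown, counting error could not be computed. Relative depth came from steps in FPKM below 0.15.

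Tests used limma 3.58.1 under R 4.3.3 (variance trend, unpaired, two-sided, only the 3 + 3 samples of a comparison; all 12 for the interaction), on the log2 scale with no filter and no further scaling. The functions were tested on simulated data. An exact permutation test of 3 against 3 samples cannot give a p-value under 0.1. Same-numbered samples were not treated as paired. The correlations of their deviations from the group means lay between -0.39 and 0.17. Samples of different numbers were not compared in this way, so pairing stays unknown.

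The 7 genes, lists and motifs were chosen with earlier results of these data known. The result for 1 of the motifs is not reported here. Besides the 7 genes, the genes named were the 2 largest rises and 2 largest falls per list among called genes of mean FPKM at or above 1, the 3 most similar genes, and CD274. DEXI, CAST and CBY3 were added for their overlap and CD7 for its level after their values were seen. Alternatives were a pseudocount of 0.1, a filter on low FPKM, median ratio scaling, quantile normalization, the replicate block, other variance models, 1 fit over 4 groups, a per-gene test on FPKM and each sample left out. Removing the trend of a sample's values with transcript length (known for 98.5% of genes), keeping its median or its summed FPKM, was added after seeing the data.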

Additional observations from a re-analysis of the deposited data

Results flagged for a closer look

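The change with SB-3CT under IFNγ differed from that without IFNγ by the interaction test of limma in B2M (0.29 on the log2 scale, adjusted p = 0.0435), CIITA (-0.58, adjusted p = 0.00358), ERAP1 (-0.63, adjusted p = 0.00738), ERAP2 (-0.41, adjusted p = 0.0197), CALR (-0.45, adjusted p = 0.00588) and CANX (-0.39, adjusted p = 0.0199). The median of this difference over the 3177 expressed genes was -0.19, on the same side as the 5 negative values, and -0.02 after median ratio scaling. The part of the sample scale in these differences was not tested beyond the alternatives given.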

How the results depend on the processing

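The 5 rises with IFNγ (B2M, CD74, CIITA, ERAP1 and ERAP2), without and with SB-3CT, kept their direction and call under every alternative run. For SB-3CT with IFNγ against IFNγ, ERAP1 did so as well. The number of genes of the 7 called moved from 0 to 1 (B2M, lower) for SB-3CT against control under quantile normalization and both length trend removals. It moved from 6 to 3 for SB-3CT with IFNγ against IFNγ with length trend removed and summed FPKM kept. For the interaction it moved from 6 to 3 under median ratio scaling and to 2 with length trend removed and summed FPKM kept. With 1 sample left out it ranged from 5 to 5 (IFNγ against control), 7 to 7 (with SB-3CT), 0 to 0 (SB-3CT against control), 5 to 6 (SB-3CT with IFNγ against IFNγ) and 4 to 7 (interaction). The causes were not tested.

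Over all genes, 958 were called for IFNγ against control and 604 by the per-gene test on FPKM. For SB-3CT with IFNγ against SB-3CT 1994 were called and 1179 after median ratio scaling. For SB-3CT against control 602 were called and 74 by the per-gene test. SB-3CT with IFNγ against IFNγ gave 1862, with 1161 by the per-gene test and 981 with length trend removed and summed FPKM kept. The interaction gave 1099, 641 after median ratio scaling, 640 after quantile normalization and 452 with length trend removed and summed FPKM kept. With 1 sample left out these counts ranged from 562 to 982, 1507 to 1780, 73 to 912, 1230 to 1977 and 678 to 1450. They moved by over 1.5 times without control replicate 1, 2 or 3 or IFNγ replicate 3 (IFNγ against control, 562 to 596), without any sample (SB-3CT against control, 73 to 88, but 912 without SB-3CT replicate 1), without IFNγ replicate 3 (SB-3CT with IFNγ against IFNγ, 1230) and without control replicate 2 or IFNγ replicate 1 or 3 (interaction, 678 to 725).

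With the replicate number as a block, SB-3CT against control gave 259 called genes against 602, and the call of CD74 for SB-3CT with IFNγ against IFNγ was lost (limma adjusted p = 0.0583). The block changed no other call of the 7 genes. The labels do not say whether the numbers pair the samples.

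Signs turned for values near 0. With IFNγ, CANX was at -0.0060 (median kept) and -0.048 (sum kept) under the length trend removals and ranged from -0.046 to 0.079 with 1 sample left out, negative without control replicate 2 and without IFNγ replicate 1, and CALR ranged from -0.00021, without IFNγ replicate 1, to 0.092. With SB-3CT alone, ERAP1 ranged from -0.044 to 0.11, negative without control replicate 2 or SB-3CT replicate 1, and ERAP2 from -0.057 to 0.028, positive without SB-3CT replicate 2. For SB-3CT with IFNγ against IFNγ, B2M was at -0.32 and -0.063 under the length trend removals. In the interaction, CD74 was at 0.0070 after median ratio scaling and B2M at -0.075 without the length trend and with the median kept. Quantile normalization gave B2M 0 between the IFNγ groups by construction, as the highest gene of every such sample.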
